A study of Rattus norvegicus with 113 samples.

Results

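A set of 7 genes that mark the projection neurons of the striatum and their dopamine signaling was followed in rat hippocampus and cortex up to 12 months after traumatic brain injury (TBI). They are the dopamine receptors Drd1 and Drd2, the adenosine receptor Adora2a, the signaling proteins Ppp1r1b and Rgs9, and the neuropeptide precursors Penk and Tac1. A probe was assigned to a gene when the RefSeq accession given for it in the scanner files belongs to that symbol, which gave 12 probes for the 7 genes, out of 56688 probes and 16691 named genes. The set was chosen by a measured value, the higher Drd2 signal in hippocampus of TBI than of sham-injured rats at 12 months, and the question put to the arrays was whether the other genes follow Drd2 there. For that reason the hippocampal values of 12 months are described without a test, and tests are confined to the other comparisons.

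The rats were adult male Sprague-Dawley rats; an age is not given in the sources used here. Naive rats were neither anesthetized nor handled. Sham rats had the same anesthesia and surgery, with an opening in the right side of the skull, as TBI rats, but received no injury. TBI rats received a parasagittal fluid-percussion injury, a pressure pulse onto the intact dura, which the sample labels call moderate and the study's methods call severe. Tissue was taken at 24 hr, 2 weeks, 3 months, 6 months and 12 months as the whole hippocampus, pulled free from cortex and midbrain with forceps, and as a small piece of cortex near the injury site. There were 113 arrays of 1 dye, with 4 rats per group, tissue and interval except for the hippocampus at 24 hr (2 sham, 3 TBI and no naive arrays). Levels are given as log2 of an array's processed signal relative to the median probe of that array, so a difference of 1 is a 2-fold difference, and levels of different genes are not compared because each comes from its own probe. Bulk tissue was measured, so fewer cells of a type and less RNA per cell cannot be told apart.

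The striatum lies beneath the cortex, its tail runs close to the hippocampus, and most of its neurons are GABAergic medium spiny neurons. Those of the direct pathway carry the D1 dopamine receptor, encoded by Drd1, which raises cyclic AMP, and release substance P from the Tac1 precursor. Those of the indirect pathway carry the D2 receptor, encoded by Drd2, which lowers cyclic AMP, together with the adenosine receptor encoded by Adora2a and enkephalin from the Penk precursor. Ppp1r1b encodes DARPP-32, a protein phosphatase inhibitor that protein kinase A switches on, and Rgs9 encodes a regulator that shortens G protein signaling downstream of D2 receptors. None of these genes is exclusive to the striatum: hippocampus and cortex also hold neurons with D1 and D2 receptors, and enkephalin and substance P occur in interneurons and some principal cells.

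The probes detect transcripts whose promoters differ in base composition, and the promoters found for members are printed here to set out what the genes share in sequence. RefSeq promoter sequences (build GRCr8, the 250 bases before the annotated start, 5′ to 3′ on the gene's strand) were matched for 4 of the 7 members. Capitals mark the matches to the motifs searched on both strands, which were the cyclic AMP response element TGACGTCA, its shorter form TGACG, the GC box GGGCGG and the TATA box TATAAA. Adora2a, Penk and Ppp1r1b had no entry.
Drd2, chr8:58605153-58605402, + strand: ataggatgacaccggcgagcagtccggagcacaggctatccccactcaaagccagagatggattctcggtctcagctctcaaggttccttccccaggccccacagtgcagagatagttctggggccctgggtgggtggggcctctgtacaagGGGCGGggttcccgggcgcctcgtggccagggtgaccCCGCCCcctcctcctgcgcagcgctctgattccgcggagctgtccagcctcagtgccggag
Drd1, chr17:10546354-10546603, + strand: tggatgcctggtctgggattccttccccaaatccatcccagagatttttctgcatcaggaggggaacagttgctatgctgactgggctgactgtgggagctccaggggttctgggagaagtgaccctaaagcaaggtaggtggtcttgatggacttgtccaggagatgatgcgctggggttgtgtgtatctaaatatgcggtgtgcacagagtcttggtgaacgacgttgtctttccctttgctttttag
Tac1, chr4:36645333-36645582, + strand: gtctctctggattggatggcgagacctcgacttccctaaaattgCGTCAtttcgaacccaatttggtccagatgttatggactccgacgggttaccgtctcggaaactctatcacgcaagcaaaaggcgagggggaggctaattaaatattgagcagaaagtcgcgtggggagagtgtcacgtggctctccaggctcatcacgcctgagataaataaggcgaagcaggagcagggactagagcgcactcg
Rgs9, chr10:94770388-94770637, - strand: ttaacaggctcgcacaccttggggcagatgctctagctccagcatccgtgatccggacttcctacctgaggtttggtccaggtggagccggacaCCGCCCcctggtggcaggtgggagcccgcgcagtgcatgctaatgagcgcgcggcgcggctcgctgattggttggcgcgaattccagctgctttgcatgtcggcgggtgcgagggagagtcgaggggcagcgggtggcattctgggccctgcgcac
The Drd2 promoter had a GC content of 66.0% and held 2 GC boxes, 98 to 93 and 61 to 56 bases before the start. The Rgs9 promoter, with 65.6% GC, held 1 GC box at 156 to 151 bases before the start. The Tac1 promoter had 52.4% GC and 1 short form of the cyclic AMP response element, written CGTCA on this strand, 206 to 202 bases before the start. The Drd1 window, at 51.2% GC, held none of the motifs. For comparison, the median GC content of 33469 promoters of this length was 51.2%, and 30.5% of them held a GC box, 18.2% the short response element, 12.9% a TATA box and 1.59% the full response element. These matches describe the letters only. The GC box occurred in the Drd2 and Rgs9 windows, and no motif occurred in all 4.

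All groups but those of the hippocampus at 24 hr and 3 months were hybridized to a design with 45598 probes (96 arrays). The hippocampus at 24 hr and 3 months was on a design with 30367 probes (17 arrays), and levels are not compared between the designs. On the larger design each member was well above background on all 96 arrays. Drd2 was read there from its only probe. On the smaller design Drd1 was represented by a dim probe, above background on 6 of 17 arrays, and was not tested there. A second Drd2 probe on that design was above background on 0 of 17 arrays, and the Drd2 probe used was above it on 16. Between 41.2% and 93.0% of an array's probes were well above background, with a median of 55.1%. The highest value belonged to replicate 3 of the 2-week sham cortex, on which every member was below the other 3 arrays of its group, and the members' cortical differences of 2 weeks that use it are given with and without it. Each group lay on 1 slide. Slides were shared by TBI and sham arrays of the 2-week, 3-month and 12-month hippocampus and of the 3-month and 12-month cortex. In the other TBI against sham comparisons slide and group cannot be told apart. The hippocampal sham and TBI arrays of 24 hr were also scanned on different days.

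In the hippocampus at 12 months Drd2 was higher in TBI than in sham rats, and the sham rats were also lower than the naive rats. The 4 sham arrays had Drd2 levels of 2.16, 1.48, 1.66 and 1.68, with a mean of 1.75 ± 0.29 (SD, n = 4). The 4 TBI arrays had 3.10, 2.83, 2.56 and 2.24, with a mean of 2.68 ± 0.37 (SD, n = 4). The lowest TBI array lay just above the highest sham array, so the groups did not overlap, and the means differed by 0.94 on the log2 scale, or 1.92-fold. The 4 naive arrays had 2.20, 2.69, 2.28 and 2.82, with a mean of 2.50 ± 0.30 (SD, n = 4). All of them exceeded the highest sham array, by 1.68-fold in the means, and TBI exceeded naive by 0.19. The naive arrays were on another slide than the sham and TBI arrays, so that slide and group cannot be told apart for the naive rats. Of the 25360 probes tested at this interval, 2.38% were higher and 7.66% lower in TBI than in sham rats without overlap, limma called 0 probes (0% of those tested) at an adjusted p below 0.05, and 3960 probes (15.6%) had an unadjusted p below 0.05. Between sham and naive rats 14.4% of 25299 tested probes did not overlap and 3.30% were called. Since the set was chosen for this difference, nothing is read from its size.

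**Figure D1:**
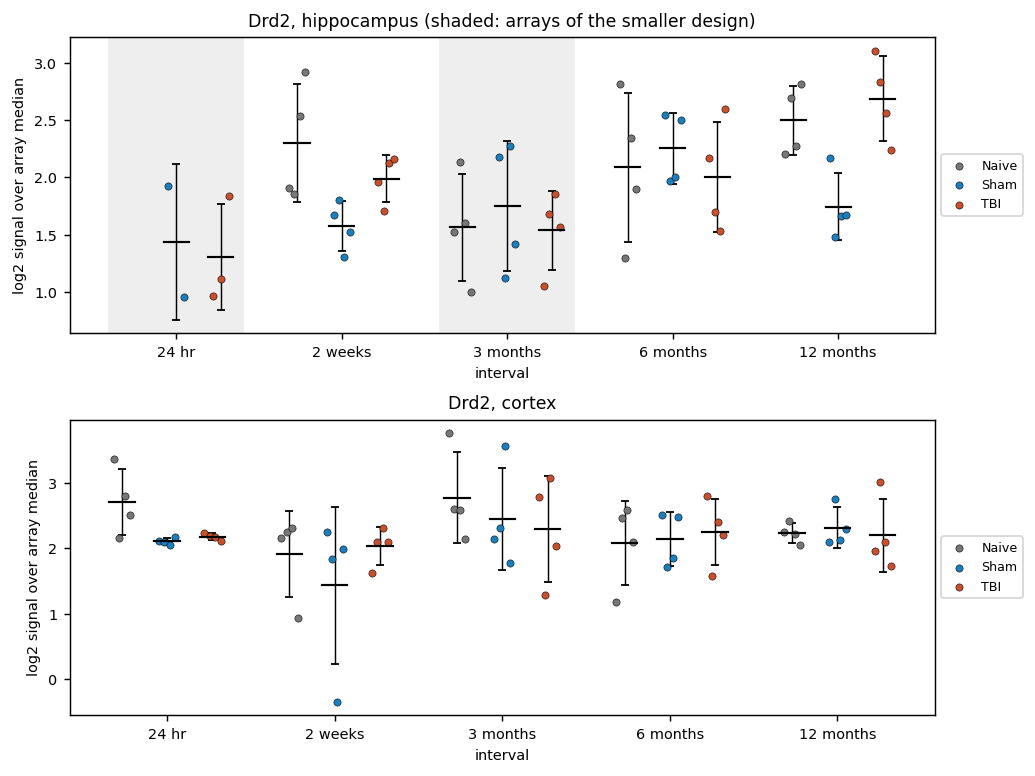
Drd2 level (log2 relative to the array median) on each array, by interval and group, for hippocampus and cortex; each point is 1 array (1 rat), horizontal bars are group means, whiskers are SDs, and shaded values on the smaller design (hippocampus at 24 hr and 3 months) are not on the same scale as the others. In the hippocampus at 12 months the 4 TBI arrays (2.24 to 3.10) lie above the 4 sham arrays (1.48 to 2.16), while the naive arrays (2.20 to 2.82) lie among the TBI arrays.

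The other dopamine receptor and the direct-pathway neuropeptide differed in the same direction as Drd2 but with overlapping groups. Drd1 had levels of 3.53, 2.82, 2.95 and 2.64 in the sham arrays, and 3.25, 3.46, 3.53 and 3.32 in the TBI arrays. The naive arrays had 2.93, 3.66, 3.23 and 3.65. Sham replicate 1 was as high for Drd1 as the highest TBI array, the other 3 sham arrays were below every TBI array, and the mean of TBI was 0.40 higher. A second, dimmer Drd1 probe had 0.12, -0.53, -0.56 and -0.78 in the sham arrays and 0.61, 0.31, -0.11 and 0.31 in the TBI arrays, a difference of 0.72. Tac1 had 4.76, 4.20, 5.02 and 4.13 in the sham arrays, 4.82, 4.62, 5.07 and 5.12 in the TBI arrays, and 5.02, 5.30, 4.74 and 4.93 in the naive arrays. Sham replicates 2 and 4 were the lowest of the 12 arrays, and the TBI mean was 0.38 above that of sham. For both genes the sham mean was also the lowest of the 3 groups, by 0.38 (Drd1) and 0.47 (Tac1) against naive.

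Adora2a and Penk, the members that accompany Drd2 in the indirect pathway of the striatum, did not share its direction. Adora2a had 1.71, 2.03, 1.59 and 1.66 in the sham arrays and 1.26, 1.28, 1.57 and 1.49 in the TBI arrays. The groups did not overlap, with TBI lower by a log2 difference of -0.35, so that sham was 1.27-fold above TBI. The naive arrays, at 1.54, 1.97, 1.74 and 1.85, covered much the same range as sham. Penk had 5.37, 5.0, 4.98 and 4.87 in sham, 4.85, 4.80, 5.05 and 4.53 in TBI, and 4.80, 4.78, 4.89 and 4.94 in naive arrays. Those groups overlapped, and the difference of TBI from sham was -0.25.

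The signaling proteins downstream of the receptors differed least. Rgs9 had 3.52, 3.00, 3.35 and 3.17 in sham, 2.99, 3.32, 3.27 and 3.47 in TBI, and 3.27, 3.47, 3.47 and 3.60 in naive arrays, and the difference of TBI from sham was 0.00. Ppp1r1b had 6.83, 6.84, 7.03 and 6.96 in sham, 6.72, 6.79, 6.96 and 6.72 in TBI, and 6.75, 6.91, 7.23 and 7.04 in naive arrays, a difference of -0.12. Of the 7 members, then, 1 lay higher and 1 lower in every TBI array than in every sham array. Over all tested probes 2.38% lay higher and 7.66% lower in this way, and nothing is read from the count. Under the other scalings, background corrections and left-out arrays the difference of Drd2 ran from 0.73 to 1.09, that of Adora2a from -0.40 to -0.20, and none of the 7 changed its side of 0 but Rgs9, which ran from -0.08 to 0.09.

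**Figure D2:**
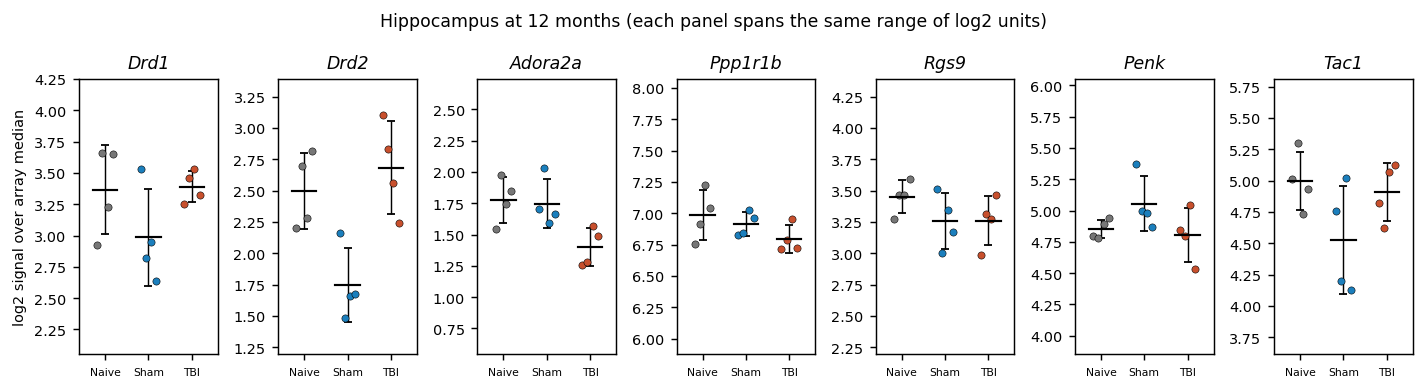
Levels of the 7 members (log2 relative to the array median) in the hippocampus at 12 months; each point is 1 array (4 naive, 4 sham, 4 TBI), horizontal bars are group means and whiskers SDs. TBI and sham arrays do not overlap for Drd2 (TBI higher by 0.94) and Adora2a (TBI lower, a difference of -0.35), and overlap for the other members.

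Other genes of striatal neurons gave a divided picture at 12 months. The list held 27 genes on the array, of which 22 were tested; 12 of these were higher and 10 lower in TBI than in sham, with a median difference of 0.02 beside -0.06 over all tested probes. Only Scn4b, a sodium channel subunit, was higher without overlap (sham 4.94 to 5.12, TBI 5.27 to 5.61), as were 2.38% of all tested probes. Gpr52, an orphan receptor that is found in indirect-pathway neurons, had 0.61 to 1.85 in sham and 1.78 to 2.22 in TBI arrays, which overlapped. Pde10a, the phosphodiesterase of medium spiny neurons, differed by -0.08 and the opioid precursor Pdyn by -0.61. The homeobox genes Isl1 and Six3, the receptor Gpr6 and the enzyme Ido1 were not well above background on any 12-month hippocampal array. The mean log2 level was taken over all 27 genes of the list on the array, including those not above background. It was 2.50 to 2.79 in sham, 2.75 to 3.02 in TBI and 2.92 to 3.33 in naive arrays. Of the 22 tested genes 12 had their lowest mean in sham. So did Drd2, Drd1, Tac1 and, with a difference of TBI from sham of 0.00, Rgs9. The same held for 8 of 11 interneuron genes, 7 of 10 oligodendrocyte genes, 3 of 10 hippocampus genes and 0 of 10 microglial genes. The share over all probes was not computed. The part of these genes in the Drd2 difference was not tested.

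Genes of dopamine synthesis, transport, breakdown and signaling were divided as well. Of 19 genes on the array 15 were tested, 7 of them higher and 8 lower in TBI than in sham, with a median of -0.02. Th, the rate-limiting enzyme of dopamine synthesis, was higher without overlap (sham 3.10 to 3.30, TBI 3.34 to 3.69). Slc18a2, which loads dopamine into vesicles, was lower without overlap (sham 0.94 to 1.22, TBI 0.69 to 0.81). Of all tested probes 2.38% were higher and 7.66% lower without overlap. Both genes were named after their values were seen. Drd5, the other D1-like receptor, differed by 0.09. The receptors Drd3 and Drd4 and the dopamine transporter Slc6a3 were not well above background on any of the 12 arrays.

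Markers of other regions next to the hippocampus were read on the same 12 arrays. Summed over 6 thalamic genes, the linear level relative to the array median was 25.3 to 35.8 in sham, 27.3 to 34.7 in TBI and 28.2 to 54.2 in naive arrays, and the defining gene Gbx2 was below background on all. Over 8 septal and cholinergic genes it was 60.6 to 85.6 in sham, 56.6 to 70.7 in TBI and 69.1 to 85.4 in naive arrays, with Chat, Lhx8 and Gbx1 below background on all. Choroid plexus genes differed between arrays rather than groups, at 8065 on naive replicate 3, 6323 on sham replicate 3, 783 on TBI replicate 1 and at most 400 on the others. The summed levels of the first 2 lists overlapped between TBI and sham arrays. Such sums weigh bright genes most, unlike the mean log2 level given for the striatal list. Of the 5 thalamic genes tested, 3 had their lowest mean in sham, as Drd2 did; among them Ramp3, a receptor-associated protein, differed by 0.49 between TBI and sham and by -0.63 between sham and naive arrays. Of 11 genes of cortex identity 8 were higher and 3 lower in TBI than in sham (median 0.03), and 5 had their lowest mean in sham, among them the transcription factor Tbr1, which was 0.84 higher in TBI than in sham. Interneuron genes were higher in TBI than in sham for 10 of 11 tested genes (median 0.20) and microglial genes lower for 10 of 10 (median -0.35), and their part in the differences of the members was not tested.

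Ordered by mean, the 9 hippocampal groups of the larger design ran in Drd2 from TBI at 12 months (2.68) through naive at 12 months (2.50), naive at 2 weeks (2.30), sham at 6 months (2.25), naive at 6 months (2.09), TBI at 6 months (2.00), TBI at 2 weeks (1.99) and sham at 12 months (1.75) to sham at 2 weeks (1.58). None of the 8 steps between neighbors exceeded the larger of their SDs, and the largest step was 0.24. The TBI group at 12 months thus had the highest mean by a margin below the spread of its arrays.

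At the 4 other hippocampal intervals TBI and sham rats were compared with limma, with adjustment over all tested probes, and no member was called. At 2 weeks Drd2 had levels of 1.67, 1.81, 1.30 and 1.53 in sham and 1.96, 1.71, 2.12 and 2.16 in TBI arrays. The groups overlapped, and the difference was 0.41 with an SE of 0.22 and an adjusted p of 0.27. At 6 months Drd2 had 2.54, 1.97, 2.00 and 2.50 in sham and 2.17, 1.70, 1.53 and 2.60 in TBI arrays, a difference of -0.25 (SE 0.28). At 3 months it had 2.18, 1.12, 2.28 and 1.42 in sham and 1.05, 1.68, 1.86 and 1.57 in TBI arrays, a difference of -0.21 (SE 0.29). At 24 hr the 2 sham arrays had 1.92 and 0.96 and the 3 TBI arrays 0.97, 1.12 and 1.84. The 95% intervals of these differences reached from -0.07 to 0.90 (2 weeks), from -0.84 to 0.34 (6 months), from -0.84 to 0.42 (3 months) and from -1.01 to 0.74 (24 hr). Over all probes the called share was 14.2% (24 hr), 1.91% (2 weeks), 0.0138% (3 months) and 0.0134% (6 months).

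The other members were likewise not called in the injured hippocampus. The only member with an unadjusted p below 0.05, as 24.4% of probes had, was Penk at 2 weeks, with 4.70, 4.86, 4.89 and 4.94 in sham and 4.40, 4.82, 3.94 and 4.06 in TBI arrays. TBI replicate 2 lay within the sham range, and the other 3 TBI arrays below it. The difference was -0.54 (SE 0.18) with an adjusted p of 0.11, and without TBI replicate 2 it was -0.71 with an adjusted p of 0.030. Over all arrays left out singly, it ran from -0.71 to -0.42. Ppp1r1b at 24 hr was lower in all 3 TBI arrays (5.13, 5.63 and 5.60) than in both sham arrays (5.86 and 5.76), by -0.35 with an adjusted p of 0.26, where 50.3% of probes did not overlap between these small groups. Across the 26 member tests of these 4 comparisons the differences ran from -0.54 to 0.46. Among the other striatal genes, 1 of 17 tested genes was higher at 24 hr (Ecel1, a peptidase induced in injured neurons, by 2.47) and 2 were lower (Scn4b, by -0.84, and Pde10a, by -0.60). The dopamine pathway list held 2 calls of 13 tested genes at 24 hr, the cofactor enzyme Gch1 (1.76) and Th (-0.94). Of all tested probes 14.2% were called at 24 hr, and nothing is read from these counts. The sham and TBI arrays of that interval differed in slide and scan day. Neither list held a call at 2 weeks, 3 months or 6 months.

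In the cortex no member was called between TBI and sham rats at any interval, and 1 of 35 member tests had an unadjusted p below 0.05. Leaving 2 weeks aside, the 28 member differences ran from -0.44 (Rgs9 at 3 months) to 0.67 (Rgs9 at 6 months), and those of Drd2 from -0.15 to 0.11. At 12 months, the interval of the hippocampal difference, Drd2 had 2.09, 2.76, 2.12 and 2.29 in sham and 1.96, 3.00, 2.10 and 1.73 in TBI cortex. These values overlapped widely, and the difference was -0.12 with a 95% interval of -0.65 to 0.41. That test was of Ppp1r1b at 24 hr, with 6.87, 6.59, 6.68 and 6.42 in sham and 7.0, 7.45, 7.21 and 6.92 in TBI arrays. All TBI arrays were above all sham arrays, and the difference of 0.51 (SE 0.15) had an adjusted p of 0.095. With normexp background correction limma gave 0.65 with an adjusted p of 0.0081, and with dim probes kept its adjusted p was 0.040. Scaling to the 75th percentile lowered the differences of this comparison by 0.14 and gave no call. Leaving out 1 array gave differences of 0.41 to 0.58, also without a call. At that interval 0.286% of probes were called, 20.9% had an unadjusted p below 0.05 and 11.8% did not overlap. Later, 0.00849% (2 weeks), 0% (3 months), 0.0805% (6 months) and 0% (12 months) of probes were called by limma, and the intervals without a call had 908 (3 months) and 1531 (12 months) probes with an unadjusted p below 0.05.

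At 2 weeks the cortical comparison turned on 1 array. With all 4 sham arrays the differences were 1.62 for Ppp1r1b, 1.45 for Tac1, 1.25 for Drd1 and 0.60 for Drd2, none called. Sham replicate 3 had a Ppp1r1b level of 1.62, against 6.73 to 6.89 on the other sham arrays, and a Tac1 level of -1.11 against 4.58 to 4.70. Without it the differences ran from -0.55 for Penk to 0.32 for Ppp1r1b, and that of Drd2 was 0.00. On this array every member was low, and 93.0% of its probes were well above background.

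**Figure D3:**
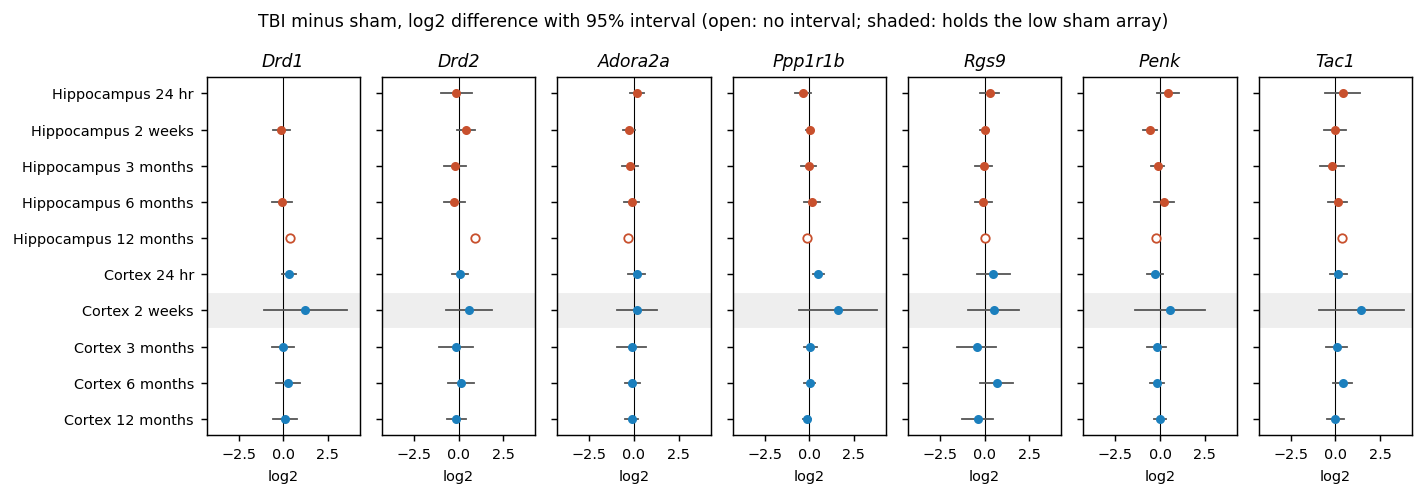
Difference of TBI minus sham (log2) for each member at each interval in hippocampus and cortex; points are limma estimates and bars are 95% intervals, and the open hippocampal points of 12 months have no interval because the members were chosen there, while Drd1 has no point where it was not tested. Every interval shown spans 0 except those of Penk in the hippocampus at 2 weeks (-0.94 to -0.15) and Ppp1r1b in the cortex at 24 hr (0.19 to 0.83); the wide cortical intervals of 2 weeks include sham replicate 3.

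Whether injury acted differently in hippocampus and cortex was tested at 2 weeks and 6 months, the intervals apart from 12 months at which both tissues were on 1 design. None of the 14 member tests was called by limma and none had an unadjusted p below 0.05, where 0% and 0.00400% of all probes were called and 2.28% and 1.75% had an unadjusted p below 0.05. The difference of differences for Drd2 was -0.18 at 2 weeks and -0.36 at 6 months, with 95% intervals of -1.49 to 1.12 and -1.34 to 0.62. Without replicate 3 of the sham cortex the 2-week value turned to 0.41 (SE 0.40, adjusted p 1.00), that of Ppp1r1b moved from -1.61 to -0.31, and again no member was called. At 12 months, described only, Drd2 differed by 0.94 in the hippocampus and by -0.12 in the cortex.

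Sham rats were also compared with naive rats, which asks what surgery and handling without injury go with. In the hippocampus at 2 weeks the naive arrays had Drd2 levels of 1.91, 1.85, 2.53 and 2.92, all above the 4 sham arrays (1.30 to 1.81). The difference of -0.73 (SE 0.22) was near that of 12 months (-0.75), and its adjusted p was 0.062, beside 8.74% of probes called, 25.4% with an unadjusted p below 0.05 and 17.2% not overlapping. It was called without naive replicate 1 (adjusted p 0.047) or naive replicate 2 (adjusted p 0.038). Over all arrays left out singly, the difference ran from -0.88 to -0.52. Naive arrays of 2 weeks and of 12 months were on other slides than the sham arrays of their interval, so slide and group cannot be told apart in both. At 6 months, where sham and naive arrays shared a slide, Drd2 was 2.81, 1.30, 2.34 and 1.90 in naive arrays, which enclosed the sham values, and the difference was 0.17 (SE 0.28). At 3 months the difference was 0.18 (SE 0.29). No member was called in the 3 hippocampal comparisons tested, where 3.47% of probes were called at 6 months and 0% at 3 months (889 with an unadjusted p below 0.05).

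Adora2a, the partner of Drd2 in indirect-pathway neurons, differed from it here as well. At 6 months its sham arrays (1.60, 1.64, 1.74 and 1.76) were all above its naive arrays (1.55, 0.90, 1.28 and 1.30). The difference of 0.43 (SE 0.20) had an adjusted p of 0.29, and of 0.046 with quantile normalization, where it was 0.30; 7.48% of probes did not overlap and 15.7% had an unadjusted p below 0.05. At 2 weeks Adora2a differed by 0.03 between sham and naive hippocampus, where Drd2 differed by -0.73.

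The only member called between sham and naive rats was Ppp1r1b in the cortex at 24 hr, where sham and naive arrays shared a slide. It had 7.87, 7.51, 7.54 and 7.58 in naive and 6.87, 6.59, 6.68 and 6.42 in sham arrays. The groups were far apart, naive was 1.98-fold above sham, and the difference of -0.98 (SE 0.15) had an adjusted p of 0.0067. This was the 1 call among 55 member tests of sham against naive, in a comparison in which 19.2% of all probes were called and 26.0% were lower in sham without overlap. Scaling to the 75th percentile in place of the median moved all probes of this comparison by 0.18. Another 3 members fell short of the threshold, with an unadjusted p below 0.05 as 34.7% of probes had: Drd2 (-0.60, adjusted p 0.051), Adora2a (-0.57, adjusted p 0.080) and Drd1 (-0.43, adjusted p 0.11). Drd2 was called at -0.78 and Drd1 at -0.60 without naive replicate 2, and the second Drd1 probe differed by 0.32 in the other direction. Over all arrays left out singly, Drd2 ran from -0.78 to -0.38 and Drd1 from -0.60 to -0.28. Tac1 differed by 0.05 and Penk by -0.19. Of 23 other striatal genes 5 were called, all lower in sham: the transcription factor Foxp1 (-0.98), Pde10a (-0.95), the G protein subunit Gng7 (-0.81), the kinase Dclk3 (-0.81) and the small G protein Rasd2 (-0.60). Their median was -0.42, beside -0.20 over all tested probes. Drd5 was the 1 call of 15 tested dopamine pathway genes (-0.67).

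Sham against naive cortex gave no further call. At 2 weeks the member differences ran from -1.49 (Tac1) to -0.12 (Adora2a), with Drd2 at -0.47, and without sham replicate 3 they ran from -0.05 (Tac1) to 0.36 (Ppp1r1b), with Drd2 at 0.12 and 29 of all probes called. Of all probes limma called 0% (2 weeks), 0.328% (3 months), 0% (6 months) and 4.52% (12 months), and the intervals without a call had 11 (2 weeks) and 1591 (6 months, 6.93%) probes with an unadjusted p below 0.05. Tac1 at 6 months was the only other member with an unadjusted p below 0.05, with 5.26, 5.71, 5.08 and 5.70 in naive and 4.94, 4.90, 4.46 and 5.26 in sham arrays. Sham replicate 4 lay within the naive range, and the difference of -0.55 (SE 0.24) had an adjusted p of 0.70.

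The naive rats show where the members stand in each tissue without surgery. Hippocampus and cortex of the same animals were compared at 2 weeks, 6 months and 12 months, always on different slides and scan days. Tissue thus cannot be told apart from slide and scan day there. The tests took the tissues as separate groups, without the pairing by animal. Penk set the tissues apart most. At 12 months it had 4.80, 4.78, 4.89 and 4.94 in hippocampus and 6.50, 6.57, 6.53 and 6.11 in cortex. The tissues were far from overlapping, cortex was 2.98-fold higher, and the difference of -1.57 (SE 0.12) had an adjusted p of 2.42e-05. At 6 months it had 5.04, 4.16, 4.82 and 4.25 in hippocampus and 5.84, 6.11, 6.40 and 6.04 in cortex, 2.88-fold higher in cortex with an adjusted p of 6.06e-06. At 2 weeks it had 4.84, 4.81, 4.39 and 5.0 in hippocampus and 5.67, 5.98, 6.41 and 4.71 in cortex. Cortex replicate 4 lay among the hippocampal arrays, and the difference of -0.93 (SE 0.40) had an adjusted p of 0.20; without that array it was -1.26 with an adjusted p of 0.0026.

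Rgs9 and Drd1 were higher in hippocampus. Rgs9 at 12 months had 3.27, 3.47, 3.47 and 3.60 in hippocampus and 2.90, 2.75, 3.11 and 2.76 in cortex, a difference of 0.57 (SE 0.12) with an adjusted p of 0.0052. At 6 months the Rgs9 difference was 0.99 with an adjusted p of 0.0075, which rose to 0.32 without cortex replicate 1 (level 0.87), 0.12 and 0.060 without hippocampus replicates 1 and 2, 0.36 with dim probes kept, and 0.051 to 0.060 under other scalings. Drd1 at 12 months had 2.93, 3.66, 3.23 and 3.65 in hippocampus and 2.58, 2.73, 2.96 and 2.81 in cortex. The tissues overlapped in hippocampus replicate 1, and the difference of 0.60 (SE 0.17) had an adjusted p of 0.023, lost under normexp correction (0.083), with dim probes kept (0.094), and without any of 4 single arrays (0.052 to 0.066). The second Drd1 probe gave 0.27 with an adjusted p of 0.23.

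Drd2 itself was not called between the tissues at any interval, with differences of 0.39 (95% interval -0.39 to 1.18) at 2 weeks, 0.01 (-0.57 to 0.59) at 6 months and 0.27 (-0.09 to 0.62) at 12 months. Adora2a and Ppp1r1b were lower in hippocampus at 12 months by -0.32 (adjusted p 0.0504, just above the threshold) and -0.33 (adjusted p 0.051), and at 6 months by -0.59 (adjusted p 0.18) and -0.58 (adjusted p 0.19). Both were called at both intervals with 75th percentile, quantile or the authors' scaling (at 6 months with adjusted p of 0.043 to 0.049 for Adora2a and 0.016 to 0.047 for Ppp1r1b) and with normexp correction (at 6 months 0.018 and 0.0021). Tac1 was not called. Thus 5 of 21 member tests were called, beside 4.94% (2 weeks), 16.3% (6 months) and 37.7% (12 months) of all probes. Scaling to the 75th percentile moved all probes by 0.45 at 2 weeks, where it called Penk, Adora2a and Ppp1r1b. At 2 weeks and 6 months limma gave all 7 members nearly the same SE, so the intervals there reflect the spread over all probes. Of the 23 other striatal genes tested at 12 months, 8 were higher in hippocampus (Rxrg by 3.45, Bcl11b by 2.10) and 9 lower (Scn4b by -2.26), so the striatal genes as a list did not stand on 1 side.

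**Figure D4:**
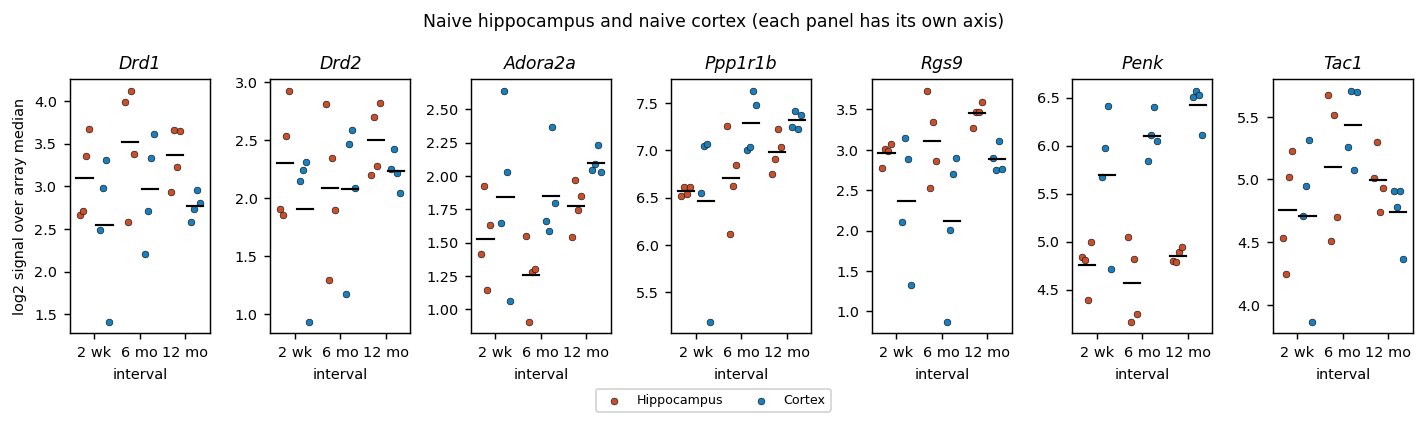
Levels of the 7 members (log2 relative to the array median) in naive hippocampus and naive cortex at 2 weeks, 6 months and 12 months; each point is 1 array and bars are group means. Penk lies 1.53 (6 months) and 1.57 (12 months) higher in cortex, while Drd2 levels of the tissues overlap at each interval.

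Whether Drd2 varies from rat to rat together with the other members was tested on the 24 hippocampal arrays of 2 weeks and 6 months, which had no part in choosing the set. Each group's mean was subtracted, arrays were permuted 100000 times within groups, tests were two-sided, and p-values were adjusted over the 6 members. Drd2 varied with Drd1 most closely, with a Pearson r of 0.82 (permutation adjusted p 0.0031) and a Spearman rho of 0.83 (permutation adjusted p 0.0017). It was followed by Tac1, with r 0.66 (adjusted p 0.015) and rho 0.66 (adjusted p 0.014), and Rgs9, with r 0.61 (adjusted p 0.048) and rho 0.48 (adjusted p 0.11). Ppp1r1b had r 0.52 (adjusted p 0.13) and rho 0.29 (adjusted p 0.36). No relation was found by the test with its partners of the indirect pathway: Adora2a had r 0.20 and Penk r 0.14, both with an adjusted p of 0.57, and rho 0.11 and 0.14 (adjusted p 0.66 and 0.64). The 2 arrays farthest from the rest in Drd2 were naive replicates 1 (high) and 2 (low) of 6 months, and without them Drd1 kept r 0.75 (adjusted p 0.015), while Tac1 had 0.55 (0.077), Rgs9 0.31 (0.40) and Ppp1r1b 0.08 (0.80). The relation with Rgs9 thus rests on those arrays, and that with Tac1 kept most of its size but lost its call. With 75th percentile scaling Drd1 kept r 0.73 (adjusted p 0.016), whereas the calls of Tac1 (r 0.55, adjusted p 0.068) and Rgs9 (r 0.35, adjusted p 0.23) were lost and Ppp1r1b fell to r 0.17. Naive replicate 2 of 6 months had 72.5% of its probes above background and was the lowest array of its group in all 7 members.

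Within the intervals the relation with Drd1 held in each, with r 0.87 at 2 weeks and 0.79 at 6 months (n = 12 each), as did that with Tac1, with 0.63 and 0.71. Rgs9 had -0.04 at 2 weeks and 0.82 at 6 months, Adora2a -0.36 and 0.65, Penk -0.30 and 0.33, and Ppp1r1b 0.17 and 0.63, so that for these genes the sign or size of r differed between the intervals. As a description, the 12 arrays of 12 months gave 0.63 for Drd1, 0.56 for Penk, 0.14 for Rgs9, 0.07 for Tac1, -0.08 for Ppp1r1b and -0.14 for Adora2a after subtraction of group means. The 12 arrays of 3 months, on the other design, gave 0.87 for Tac1, 0.65 for Rgs9 and 0.48 for the dim Drd1 probe. Over the same 24 arrays Drd2 had r 0.61 with the mean of the other striatal genes, 0.74 with that of the thalamic genes, 0.63 with that of interneuron genes, 0.50 with that of cortex genes and -0.05 with that of hippocampus genes, and -0.31 with the percentage of probes above background. Drd1 had r 0.47 with the mean of the other striatal genes, 0.77 with that of the thalamic genes and 0.69 with that of interneuron genes. It had 0.71 with that of cortex genes and -0.18 with that of hippocampus genes. The list means took in all listed genes on the array, with no filter on background. These measures share arrays and scaling, and their part in the relation with Drd1 was not tested.

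**Figure D5:**
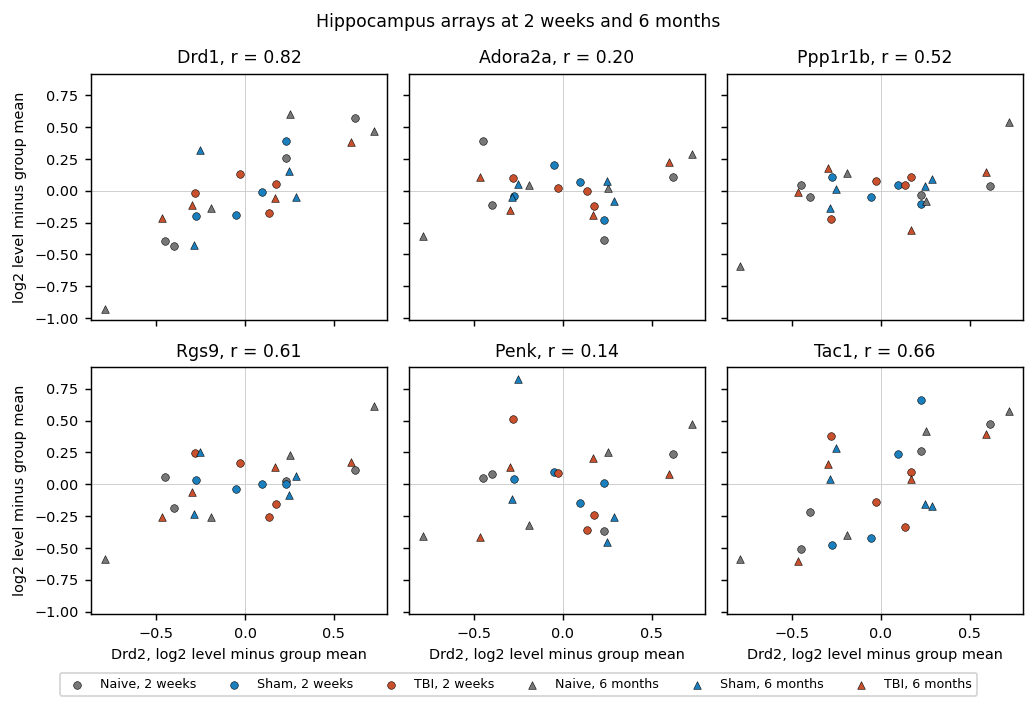
Drd2 level against the level of each other member on the 24 hippocampal arrays of 2 weeks and 6 months, with group means subtracted from both axes (log2); each point is 1 array. Drd1 follows Drd2 (r 0.82), Tac1 and Rgs9 less closely (r 0.66 and 0.61), and Adora2a and Penk scatter without a clear slope (r 0.20 and 0.14).

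Over the 60 cortical arrays, described after subtraction of group means, Drd2 had r 0.75 with Rgs9, 0.74 with Drd1, 0.70 with Adora2a, 0.66 with Tac1 and Ppp1r1b, and 0.62 with Penk. Without replicate 3 of the 2-week sham cortex these were 0.68, 0.66, 0.60, 0.51, 0.54 and 0.41. The indirect-pathway genes varied by interval in cortex as well, with r for Adora2a of 0.58 at 24 hr, 0.81 at 3 months, 0.33 at 6 months and -0.01 at 12 months, and for Penk of 0.58, 0.45, 0.23 and -0.03. At 2 weeks, without the same sham array, they had 0.69 and 0.72. Whether these correlations differ between the tissues was not tested. Single arrays carried several of the members high together. Naive replicate 1 of 3 months had the highest cortical levels of Drd2 (3.76), Drd1 (4.04), Adora2a (3.63), Rgs9 (4.35) and Tac1 (5.72). Sham replicate 3 of 3 months had Drd2 at 3.55 and Adora2a at 3.49, and naive replicate 1 of 24 hr had them at 3.36 and 3.21. No hippocampal array of the larger design had Adora2a above 2.03, even where Drd2 reached 3.10.

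Ranking 11443 named genes by their Pearson r with Drd2 over the 36 hippocampal arrays of 2 weeks, 6 months and 12 months, on levels without subtraction of group means, the closest were Avp, the vasopressin precursor (0.84), Slc35f2 (0.83), the cation channel Trpv2 (0.82), Klhdc8a (0.81) and Scarf2 (0.79). Drd1 ranked 40 with 0.72, Tac1 322, Rgs9 537, Ppp1r1b 2163, Penk 8189 and Adora2a 8747. Without the 12-month arrays the closest of 11512 genes were Trpv2 (0.85), N4bp3 (0.84), Avp (0.84), Tmem91 (0.80) and Brinp3 (0.79), and Drd1 ranked 63. These ranks describe 36 and 24 arrays on 1 scale, and many genes reach a like r. Differences between groups enter them, in the 36 arrays also the 12-month difference that chose the members.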

How the data were processed

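RNA of rat hippocampus and cortex was hybridized by the authors to 1-dye Agilent arrays, and spot intensity values were extracted with Feature Extraction (version 11.5.1.1 per the file headers). The deposited intensity used here is the processed signal, which is background-subtracted. Also deposited is the authors' value table, whose values, floored at 0.01, were taken to log2 as an alternative. Replicate spots of a probe were averaged, leaving out control and outlier-flagged spots. The log2 signal was centred on each array's median over all probes that are not controls, after the study's methods. Genes were named from accessions through RefSeq, which named 61.4% and 46.3% of probes of the 2 designs, and the brightest probe of a gene, by its mean over a design, stood for it. R 4.3.3 and limma 3.58.1 were used. Each tissue and interval was fitted with all its groups, the naive tissues with each other, on probes detected above background by all arrays of 1 or more compared groups, with Benjamini-Hochberg adjustment and a threshold of 0.05. No probe was saturated. The fits were tested on simulated data. Labels give separate samples per rat, and the number of arrays limits precision.

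The members and gene lists were chosen with earlier results of these data known. Named genes were the 7 members, up to 4 genes per list (the largest change among called genes, otherwise well-known markers; Scn4b, Gpr52, Th and Slc18a2 at 12 months, and the fifth call in the 24 hr cortex, were added after their values were seen) and the 5 genes closest to Drd2. Some genes that the lists' counts include are not reported here by name. Alternatives were 75th percentile scaling, quantile normalization, the authors' table, normexp background correction with an offset of 50 (on the median signal, as the mean signal is not used here), no filter on dim probes, only the groups compared, a replicate block, other probes and leaving out each array. Naive hippocampus and cortex arrays of the same number came from the same animal by the animal numbers of the arrays, so the numbers pair the samples there; deviations of same-numbered arrays correlated at 0.12 to 0.30 at 2 weeks, -0.38 to 0.10 at 6 months and 0.30 to 0.45 at 12 months.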

Additional observations from a re-analysis of the deposited data

Results flagged for a closer look

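On 13 of 189 member groups tested the highest or lowest of 4 arrays stood apart from the other 3, where chance gives about 1 in 20. Replicate 3 of the 2-week sham cortex accounted for 6 of them, being low for Drd1 (-2.68, others 2.67 to 3.00), Drd2 (-0.34, others 1.83 to 2.25), Ppp1r1b (1.62, others 6.73 to 6.89), Penk (1.48, others 5.96 to 6.02), Tac1 (-1.11, others 4.58 to 4.70) and Rgs9 (0.048, others 2.49 to 2.74). The same interval held 2 further cases in the cortex: Drd2 on naive replicate 4 (0.93, others 2.15 to 2.31) and Adora2a on TBI replicate 4 (1.54, others 1.97 to 2.00). In the cortex at 24 hr, sham replicate 2 was high for Adora2a (2.42, others 2.00 to 2.07) and sham replicate 1 low for Rgs9 (0.98, others 2.25 to 2.51). Penk was low on naive replicate 4 of the 12-month cortex (6.11, others 6.50 to 6.57) and on TBI replicate 4 of the 3-month hippocampus (3.66, others 4.21 to 4.27). Tac1 was low on TBI replicate 2 of the 6-month cortex (4.59, others 5.45 to 5.63). None of these 13 lies in the hippocampus at 12 months.

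Effects were compared in 133 pairs, by whether every TBI array lay on the same side of the mean of its sham group. Only Ppp1r1b at 24 hr had opposite sides in a pair. At 24 hr all TBI arrays were below all sham arrays in the hippocampus (difference -0.35) and above them in the cortex (difference 0.51). The difference between the tissues was not tested, because they were on different array designs.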

How the results depend on the processing

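Of 732 recomputed values, 657 were labeled the same. Such values kept their direction and their side of the threshold, moved by less than the spread or, for counts of calls, stayed near the main count. Many of these counts were 0 in the main fit and stayed 0. A count labeled the same can hold other members, as at 6 months between the naive tissues. No member was called between TBI and sham rats except Penk in the hippocampus at 2 weeks (0 to 1 calls on leaving out 1 array) and Ppp1r1b in the cortex at 24 hr (1 call with normexp correction and 1 with no filter). Between sham and naive rats the calls on leaving out 1 array ran from 0 to 1 in the hippocampus at 2 weeks, 1 to 3 in the cortex at 24 hr and 0 to 1 in the cortex at 12 months, and quantile normalization gave 1 call in the hippocampus at 6 months. The second Drd1 probe reversed the 24 hr cortical difference to 0.32. Between the naive tissues the calls were 3 with the 75th percentile, 2 with quantile normalization and 3 with the authors' table at 2 weeks (0 to 1 on leaving out 1 array), 3 with each of the 3 scalings (Adora2a and Ppp1r1b gained, Rgs9 lost), 4 with normexp and 1 with no filter at 6 months (1 to 2 on leaving out 1 array), and 5 with each of the 3 scalings at 12 months (2 to 4 on leaving out 1 array). Correlations with Drd2 lost or turned with 75th percentile scaling were Tac1 (0.55), Rgs9 (0.35), Adora2a (-0.17) and Penk (-0.13), and without the 2 arrays farthest in Drd2 they were 0.55, 0.31, -0.15 and -0.12. The cause was not tested.

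Fitting only the groups compared changed none of 18 counts of calls, and the replicate block changed no call in 22 counts and 25 single values, with counts of 0, 2 and 3 in the paired naive tissues. Same-numbered TBI and sham arrays correlated above 0.1 in every pair only in the cortex at 12 months (0.13 to 0.25); elsewhere they share only a number. A slide block was not run, since each group lay on 1 slide. Dim probes limit Drd1 on the smaller design and the second probes of Drd1, Drd2 and Penk.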
